A study of Mus musculus with 5 samples.

Results

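The zinc finger proteins whose symbols are Zfp followed by a number were followed through a ribosome run-off experiment in mouse brain slices. Members were chosen by symbol and by their measured count in the library without homoharringtonine (HHT): genes of the authors' count table with such a symbol, at least 100 counts at 0 min and a coding sequence (CDS) under 8000 nt, with Zfp36, an mRNA decay factor of another zinc finger type, left out. This gave 135 of the 10329 genes in the table. The table holds 275 symbols of this form: 138 lay under 100 counts and 1, Zfp292, had a longer CDS. The groups were slices exposed to 20 µM HHT for 0, 5, 10, 30 or 60 min, with 1 library each and so no replicates. The hippocampal-cortical slices all came from male C57BL/6N animals of wild-type genotype, aged 28 to 35 days, and 10 slices from 2 to 3 mice made up a pool. The vehicle was 0.05% DMSO, and no library of slices kept in vehicle alone for 5 to 60 min was analysed here, so time on HHT and time after slicing cannot be told apart. The choice of members rests on symbols, and protein sequences were not used here, so the number and kind of zinc fingers in each member was not checked.

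Most proteins of this series carry zinc fingers of the Cys2His2 type, short folds held by a zinc ion that read bases of DNA, often in long arrays. Many also carry a KRAB domain, which recruits the co-repressor Trim28 and the histone methyltransferase Setdb1 to silence retroelements and imprinted genes, while others act in chromatin complexes, on RNA or at the ribosome. HHT stops ribosomes that have just initiated, while those already elongating run off, so an mRNA empties from its 5′ end and a long CDS takes longer to clear.

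Library totals were 7155147, 2787749, 2022152, 1504748 and 1346175 counts in time order (0, 5, 10, 30 and 60 min). The members held 0.533%, 0.564%, 0.537%, 0.508% and 0.472% of these counts in the same order. The median member had 196 counts at 0 min, against 395 for the 6783 other genes that met the same count and length limits. Per length, members were also at the low end: the median deposited signal at 0 min was 143 for members and 375 for those other genes. This signal is the count per kilobase of CDS (less 600 nt) and per library factor, as the authors deposited it. Markers of neurons (8 of 8), astrocytes (8 of 8), oligodendrocytes (6 of 8) and microglia (8 of 9) were in the table, and their median signal ratios of 60 to 0 min were 0.219, 0.113, 0.0538 and 0.0392 over those within the limits. None of the markers in the table was at 0 counts at 0 min. The cells that supply each member's footprints were not measured, and their part in the values below was not tested. In such pooled tissue, fewer cells of a type and less RNA per cell cannot be told apart.

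The first comparison asks how much of each member's footprint signal was left at each time. The count at 0 min chose the members, so ratios to 0 min are a description with no test. In the authors' deposited table, all 135 members had ratios under 1 at every time. Their median ratios at 5, 10, 30 and 60 min were 0.385, 0.287, 0.215 and 0.161. The medians of the other genes within the limits were 0.340, 0.263, 0.217 and 0.177. By these medians, which are not matched for length, members stood above the other genes at 5 and 10 min and below them at 60 min. At 10 min the member median was lower under 1500 nt (0.200 against 0.209) and at 3000 to under 8000 nt (0.477 against 0.512). It was higher in the length classes between. A ratio under 0.5 was reached by 109 members (80.7%, against a background of 77.9% of all genes within the limits) at 5 min and by 121 (89.6%, background 86.8%) at 10 min. It was reached by 134 members (99.3%) at both 30 min (background 98.3%) and 60 min (background 99.0%). A ratio under 0.25 was reached by 90 members at 30 min (66.7%, background 64.8%) and by 119 at 60 min (88.1%, background 81.6%). These shares use the library that chose the members, and nothing is read from them. Set against other genes of its own length class, the ratio at 60 min was below the median in 82 members (60.7%, background 50.2%).

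The 5 members with the most counts differed more in their ratios at 5 min than at 60 min. Zfp207, also called BuGZ, is a spindle and kinetochore protein (CDS 1488 nt), and its counts were 1625, 401, 251, 217 and 201 in time order. Zfp445, a KRAB repressor that protects imprinted loci (2961 nt), had 1156, 650, 460, 205 and 170 counts. Zfp148 (2385 nt), which binds GC-rich promoters, had 1077, 429, 225, 186 and 165 counts. Zfp207 was low from 5 min on, whereas Zfp445 was still above 0.5 of its start at 5 min. Zfp281, a close relative of Zfp148 (2682 nt), had 1062, 477, 277, 204 and 176 counts. Zfp644, whose human counterpart works with the histone methyltransferases G9a and GLP (3879 nt), had 966, 464, 332, 163 and 133 counts. Their deposited ratios at 5 min were 0.256 for Zfp207, 0.583 for Zfp445, 0.413 for Zfp148, 0.465 for Zfp281 and 0.498 for Zfp644. At 60 min these 5 ratios lay between 0.127 and 0.170.

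**Figure D1:**
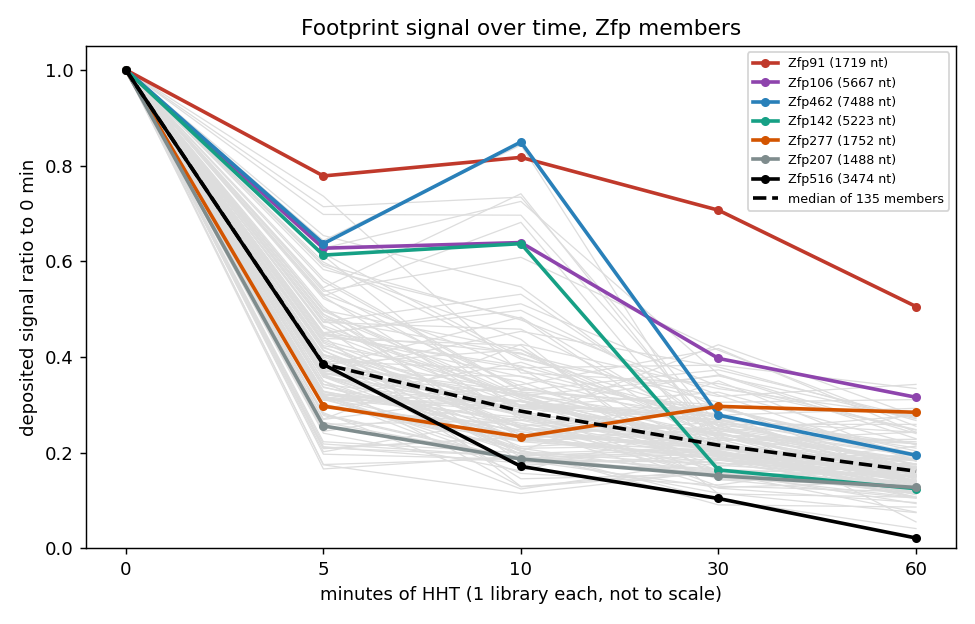
Deposited signal ratio to 0 min (y axis) against minutes of HHT (x axis, 1 library per time) for each of the 135 members (grey), for 7 named members (colour) and for the median of all members (dashed). Zfp91 stayed highest at 60 min (0.505) and Zfp516 ended lowest (0.0214), while the long Zfp462 was at 0.849 at 10 min and 0.278 at 30 min.

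Zfp91 had the highest ratio of the members at 5, 30 and 60 min, and stood below Zfp462 and Zfp407 at 10 min. It encodes a zinc finger protein with ubiquitin ligase activity in NF-kappa B signalling (chromosome 19, 12766939 to 12796123 in GRCm38, CDS 1719 nt). Its counts were 671, 504, 454, 418 and 330 in time order. The deposited ratios were 0.778, 0.817, 0.707 and 0.505 at 5, 10, 30 and 60 min, and the last has a 95% counting interval of 0.442 to 0.577. RefSeq lists Lpxn and the noncoding RNA Gm44505 overlapping its span, so reads of these cannot be fully told apart from its own. Members of 1500 to under 2000 nt, its own length class, had a median of 0.336 at 5 min and 0.163 at 60 min. The next highest ratios at 60 min were 0.342 for Zfp316, 0.334 for Zfp651, 0.316 for Zfp106 and 0.311 for Zfp653. Zfp106, an RNA-binding protein whose loss in mice damages motor neurons and muscle, is among the longest members (5667 nt), whereas Zfp653 has a CDS of 1848 nt.

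The lowest ratio at 60 min was that of Zfp516, a transcriptional activator of brown fat genes (chromosome 18, CDS 3474 nt). Its counts were 240, 89, 34, 22 and 5 in time order. The ratio at 60 min was 0.0214, with a counting interval of 0.00689 to 0.0506, which overlaps that of the next lowest member, Zfp672. Zfp672 had 100, 30, 17, 9 and 4 counts and a ratio of 0.0411 (0.011 to 0.109). Zfp2, Zfp623 and Zfp37 followed at 0.055, 0.0745 and 0.0756, with 6, 10 and 27 counts at 60 min. With so few counts these members cannot be ordered among themselves. Just inside the count limit lay Zfp672 and Zfp606 (100 and 101 counts at 0 min, ratios 0.0411 and 0.112 at 60 min), and just outside it Zfp830 (97 counts, ratio 0.169).

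The second comparison asks how the loss was spread over time in members of different CDS length. The 21 members under 1500 nt had median ratios of 0.259, 0.200, 0.198 and 0.154 at 5, 10, 30 and 60 min, and the 21 of 3000 to under 8000 nt had 0.590, 0.477, 0.231 and 0.161. Long members differed among themselves at 10 min, where Zfp592 (3789 nt) was at 0.338 and Zfp516 at 0.171, with Zfp335 (4014 nt) also under 0.5. The shortest members, Zfp330 (951 nt), Zfp771 (954 nt) and Zfp444 (996 nt), had ratios of 0.174, 0.166 and 0.212 at 5 min. Zfp771 had 300, 48, 48, 55 and 49 counts in time order, a level with little movement after 5 min. The longest members, Zfp462 (7488 nt) and Zfp407 (6741 nt), had ratios of 0.637 and 0.643 at 5 min, 0.849 and 0.843 at 10 min, and 0.278 and 0.197 at 30 min. Zfp462, a chromatin-associated factor whose human counterpart is mutated in a neurodevelopmental syndrome, had 428, 263, 301, 105 and 81 counts. Zfp407 had 414, 257, 289, 72 and 65 counts. Across members, Spearman's rho between CDS length and the ratios of 5, 10, 30 and 60 min was 0.701, 0.501, 0.0284 and 0.0638, a description over 135 genes that share the same libraries. Among the other genes within the limits rho was 0.793, 0.567, 0.146 and 0.0974.

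**Figure D2:**
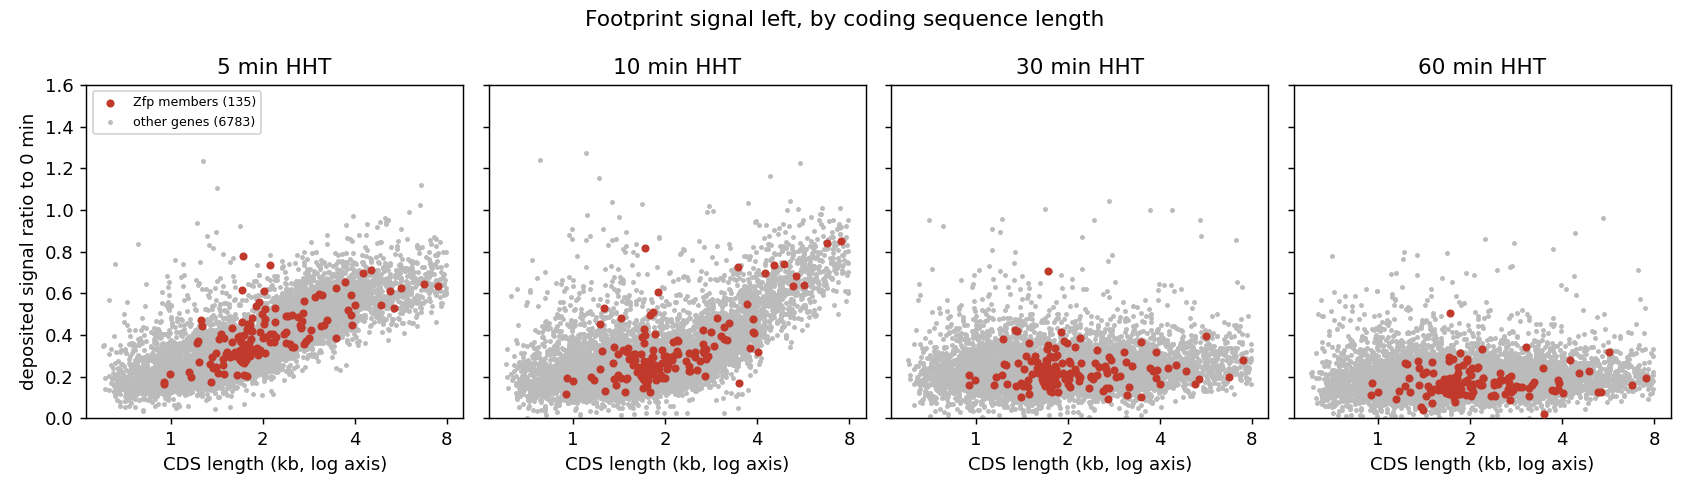
Deposited signal ratio to 0 min (y axis) against CDS length (x axis, kb, log scale) at 5, 10, 30 and 60 min for the 135 members (red) and the 6783 other genes within the same limits (grey). The rise of the ratio with length at 5 and 10 min is present in both sets and nearly gone at 30 and 60 min.

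Steps between treated libraries do not use the library that chose the members. Over members, the median signal ratio was 0.784 for 10 over 5 min, 0.799 for 30 over 10 min and 0.734 for 60 over 30 min. The other genes within the limits had medians of 0.823, 0.852 and 0.816. The signal at 30 min was at most 0.5 times that at 10 min in 18 members (13.3%), against a background of 12.6%. The signal at 10 min was at most 0.5 times that at 5 min in 14 members (10.4%), against 5.09%. It was above that at 5 min in 28 members (20.7%), against 24.8%. These shares are not matched for length. For 10 over 5 min other genes had medians of 0.751 at 1500 to under 2000 nt and 0.658 at 2000 to under 3000 nt. These classes held 57 and 36 members. The medians were 0.939 under 1500 nt and 0.895 at 3000 to under 8000 nt. Within length classes, the ratio was below the median of other genes in 66 members (48.9%, background 50.0%). The part of length in the share of 10.4% was not tested. The signal at 30 min exceeded that at 10 min in 30 members (22.2%, background 27.9%), and that at 60 min exceeded that at 30 min in 15 members (11.1%, background 14.1%). Zfp574 (2703 nt) had a large step here, with 776, 378, 131, 62 and 65 counts and a ratio of 10 to 5 min of 0.404 (0.329 to 0.494). Zfp697, Zfp831 and Zfp386 had the highest ratios of 10 to 5 min, 1.58 (0.969 to 2.60), 1.36 (1.11 to 1.67) and 1.36 (0.850 to 2.18), and the intervals of the first and the last include 1. Of the 9 members of 4000 nt or more, 7 had more signal at 10 min than at 5 min, as did 342 of the 600 other genes of that length. The lowest ratios of 30 to 10 min were those of Zfp407 at 0.234 (0.178 to 0.304), Zfp142, a gene tied to a human neurodevelopmental disorder, at 0.257 (0.208 to 0.315), and Zfp628 at 0.260 (0.161 to 0.405).

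The last step, 60 over 30 min, set the members apart from other genes most widely as a share. In 94 of 135 members (69.6%) the ratio lay below the median of other genes of the same length class, against a background of 50.3% of all genes within the limits. The same count was 66 members (48.9%, background 50.0%) for 10 over 5 min and 78 (57.8%, background 50.1%) for 30 over 10 min. By class, the median ratio of 60 to 30 min was 0.705 for 21 members under 1500 nt, 0.708 for 57 members of 1500 to under 2000 nt, 0.773 for 36 members of 2000 to under 3000 nt and 0.739 for 21 members of 3000 to under 8000 nt. The other genes had 0.828, 0.817, 0.820 and 0.795 in the same classes. Zfp symbols below the count limit, which were not members, had a median of 0.766 (138 genes), against 0.830 for the 3128 other genes below that limit. These values compare 2 single libraries and carry no test. The deposited TPM, a share of each library scaled by length, was also used, plus 1, in place of the deposited signal. The medians were then 0.875 for members and 0.983 for other genes within the limits. Members were 0.890 times the others, against 0.899 times on the deposited signal. A library factor cancels in this quotient, and both values come from the same 2 libraries, so their closeness adds no support.

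**Figure D3:**
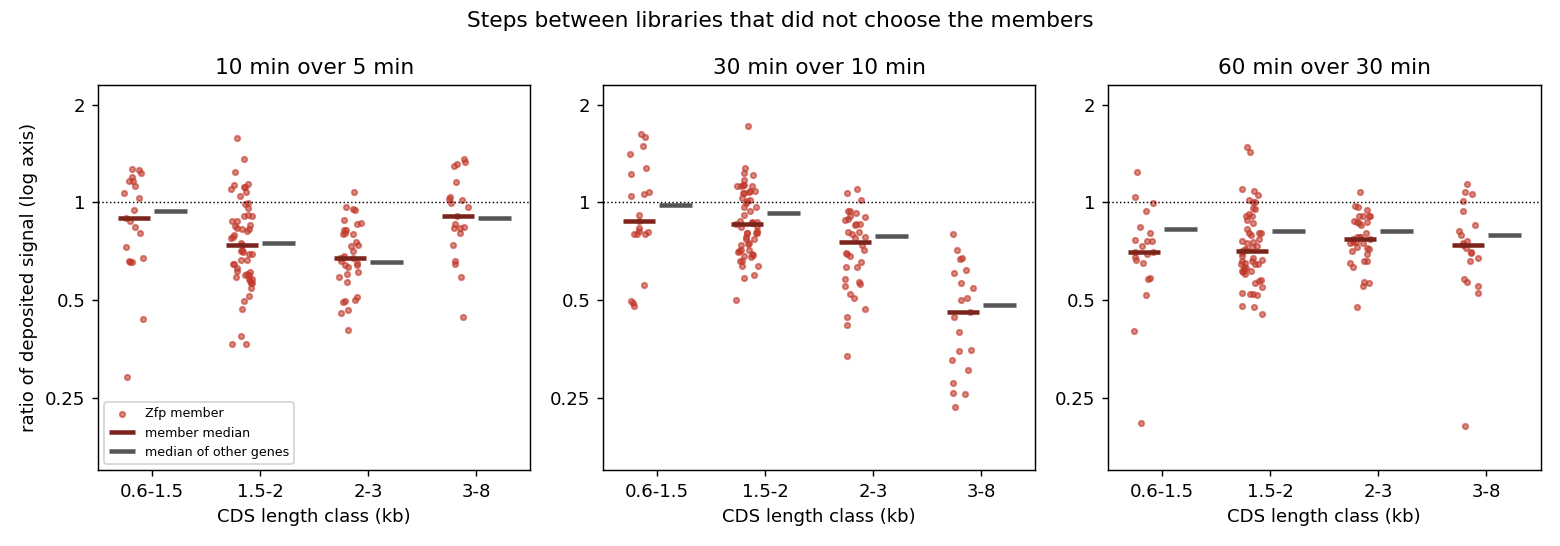
Ratio of deposited signal between successive treated libraries (y axis, log scale) in 4 CDS length classes (x axis, kb). Points are the 135 members, dark red bars their medians and grey bars the medians of other genes within the same limits; in the panel of 60 over 30 min the member median lies below the other median in all 4 classes.

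The third comparison is a test that leaves out the library that chose the members: each gene's slope against log2(minutes + 1) in the 4 libraries from 5 to 60 min. Scaled to mitochondrially encoded proteins, whose ribosomes HHT does not target, 86 of 135 members fell and 0 rose at an adjusted p under 0.05 (quasi-likelihood F-test of edgeR, with Benjamini-Hochberg adjustment across 8631 genes). The background was 44.1% of all genes tested and 48.8% of genes within the limits for falls, against 63.7% of members, and 0.568% and 0.494% for rises. At an unadjusted p under 0.05, 101 members had a falling slope and 0 a rising one. Of all 8631 genes tested, 4315 had a falling slope and 67 a rising one at that threshold. The strongest calls were Zfp574 (slope -0.77, SE 0.0924, adjusted p = 5.78e-09), Zfp628 (-0.81, SE 0.104, adjusted p = 1.91e-08) and Zfp142 (-0.78, SE 0.101, adjusted p = 2.10e-08), all by edgeR and in log2 units per unit of log2(minutes + 1). These SEs and p-values rest on scatter around the time trend of 4 single libraries. They do not measure variation between animals or slice pools. Zfp628 had 260, 148, 94, 26 and 27 counts, and Zfp142 had 825, 488, 435, 119 and 100. In both, the counts at 30 and 60 min were below those at 5 and 10 min with no overlap. Zfp516 (slope -0.98, SE 0.132), Zfp941 (-0.68, SE 0.0922) and Zfp407 (-0.73, SE 0.107) followed with adjusted p = 4.84e-08, 5.69e-08 and 2.27e-07 in edgeR. Zfp91 did not pass (slope -0.16, SE 0.0931, adjusted p = 0.156 in edgeR), and neither did the short Zfp771 (0.03, SE 0.105, adjusted p = 0.829).

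Calls followed length in members as in other genes. Under the mitochondrial scaling, 8 of 21 members under 1500 nt fell (38.1%, against 11.8% of other genes within the limits), 28 of 57 of 1500 to under 2000 nt (49.1%, against 41.4%), 30 of 36 of 2000 to under 3000 nt (83.3%, against 78.4%) and 20 of 21 of 3000 to under 8000 nt (95.2%, against 93.8%). In the shortest class the members were also longer than the other genes, with a median CDS of 1347 nt against 1128 nt, and the part of that gap in the counts was not tested. Members had fewer counts in every class, for example a median of 127 at 0 min under 1500 nt, against 300.5 for the other genes.

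**Figure D4:**
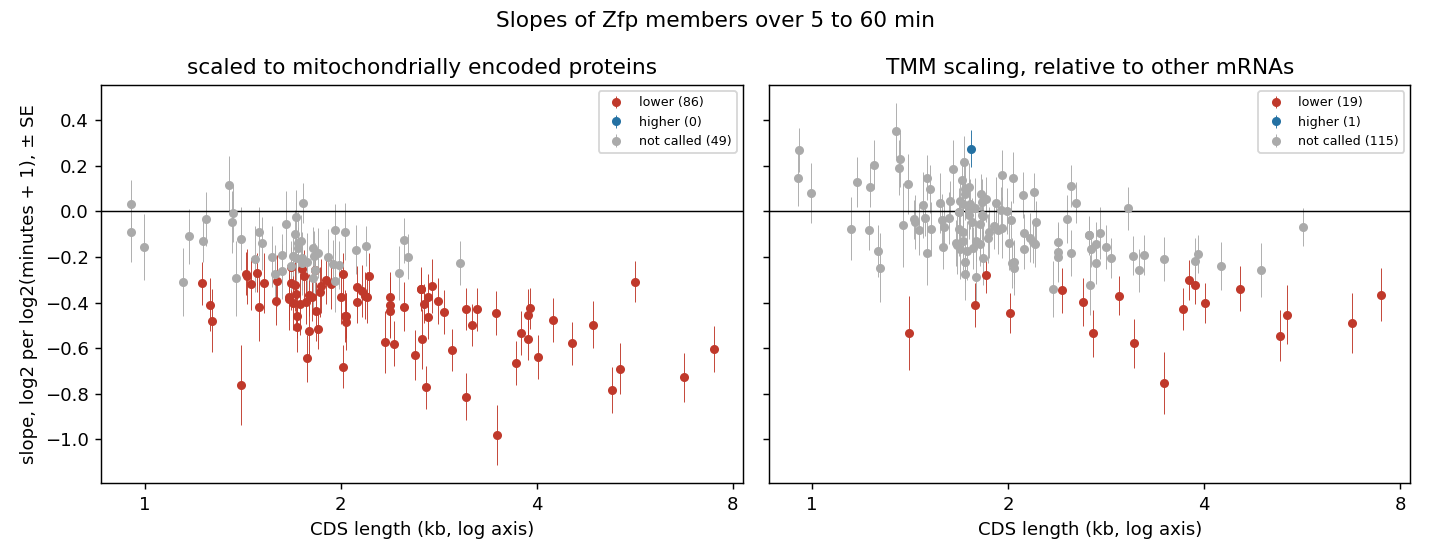
Slope on log2(minutes + 1) over 5 to 60 min with its SE (y axis) against CDS length (x axis, kb, log scale) for the 135 members, scaled to mitochondrially encoded proteins (left) and by TMM (right). Red points fell, the blue point (Zfp277) rose and grey points were not called (edgeR, adjusted p under 0.05); 86 members fell on the left, and 19 fell and 1 rose on the right.

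Relative to other mRNAs, with the TMM scaling of edgeR, 19 members fell and 1 rose at an adjusted p under 0.05. The background was 10.1% of all genes tested and 11.6% of genes within the limits for falls, against 14.1% of members, and 5.1% and 5.37% for rises, against 0.741% of members. The share of falls is close to the background. The shares of rises are not matched for length. In other genes 12.4% rose under 1500 nt and 2.09% at 1500 to under 2000 nt. In them 0.903% rose at 2000 to under 3000 nt and 0.231% at 3000 to under 8000 nt. Only 21 of the members were under 1500 nt, and 0 of these rose. The part of length in the lower share of rises was not tested. Of the 19, 11 were of 3000 nt or more (52.4% of 21 members, against 43.5% of other genes of that class). Zfp516 led (slope -0.75, SE 0.134, adjusted p = 0.0067), followed by Zfp628 (-0.58, SE 0.108, adjusted p = 0.0078), Zfp574 (-0.54, SE 0.101, adjusted p = 0.0083), Zfp941 (-0.45, SE 0.0896, adjusted p = 0.0111), Zfp142 (-0.54, SE 0.111, adjusted p = 0.0117) and Zfp687 (-0.43, SE 0.0917, adjusted p = 0.0134), all by edgeR. Zfp941 had 459, 271, 106, 77 and 48 counts. Zfp687, a partner of the chromatin reader Zmynd8, had 252, 159, 114, 54 and 33 counts. Without the 60 min library only 2 members fell and 0 rose, against 84 and 30 of all 8729 genes tested. On log2(TPM + 1) limma called 0 members in either direction, with 38 negative and 2 positive slopes at an unadjusted p under 0.05. Over all 8631 genes tested, limma also called 0, with 1680 negative and 454 positive slopes at that threshold.

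Zfp277 was the single member called higher relative to other mRNAs (slope 0.27, SE 0.0822, adjusted p = 0.0394 by edgeR). Its human counterpart binds the small-subunit ribosomal protein uS5 (chromosome 12, 40315046 to 40445790, CDS 1752 nt). It had 394, 113, 76, 103 and 109 counts in time order, so the counts at 30 and 60 min were above that at 10 min and below that at 5 min. Scaled to mitochondrially encoded proteins its slope was 0.04 (SE 0.0886, adjusted p = 0.767). The call ended without the 30 min or the 60 min library (adjusted p = 0.109 and 0.335) and by DESeq2's Wald test (adjusted p = 0.115).

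Among members with known roles on RNA, at the ribosome or in division, 6 of the 8 listed were members, and all 6 fell under the mitochondrial scaling while 0 were called by TMM. Among all genes within the limits, the background for this and the following lists, 48.8% fell under the mitochondrial scaling and 11.6% by TMM. This background is not matched for length, and the median CDS of the 6 was 2235 nt. Of other genes, 11.8% fell under the mitochondrial scaling under 1500 nt and 41.4% at 1500 to under 2000 nt. At 2000 to under 3000 nt 78.4% fell, and at 3000 to under 8000 nt 93.8%. The part of length in the list counts was not tested. Zfp598, the ubiquitin ligase that marks collided ribosomes, had 182, 99, 50, 47 and 36 counts (slope -0.38, SE 0.101, adjusted p = 0.0016 by edgeR). Zfp622, a maturation factor of the large ribosomal subunit, had 542, 114, 86, 73 and 56 counts (slope -0.27, SE 0.0932, adjusted p = 0.0138). Zfp326, which in human cells couples transcription to splicing, had 502, 154, 72, 86 and 72 counts, and Zfp318 had 583, 353, 350, 187 and 136. The 2 factors with a tie to the ribosome differed in their ratio at 5 min, 0.564 for Zfp598 (CDS 2727 nt) and 0.218 for Zfp622 (CDS 1431 nt). The median ratios of the 6 were 0.441, 0.262, 0.244 and 0.175 in time order.

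Members that work with chromatin complexes were mostly long, with a median CDS of 3751.5 nt. Over 12 of 13 listed genes the median ratios of 5, 10, 30 and 60 min were 0.510, 0.436, 0.232 and 0.152. All 12 fell under the mitochondrial scaling, and 7 of 12 fell by TMM. Of other genes of 3000 to under 8000 nt, 93.8% and 43.5% did, so nothing particular to the list is read from these counts. Zfp592 and Zfp687, both found with Zmynd8, had ratios of 0.522 and 0.654 at 5 min and 0.132 and 0.135 at 60 min. Zfp335, a nuclear receptor coregulator linked to human microcephaly, had 287, 150, 76, 41 and 34 counts. Zfp711, linked to X-linked intellectual disability in humans, had 311, 147, 59, 51 and 32 counts and the lowest ratio of this list at 60 min, 0.106. Zfp609, which acts with Nipbl and the Integrator complex in neural progenitors, had the highest at 0.278, with 196, 132, 113, 42 and 53 counts. Zfp532 had a ratio of 0.144 at 60 min, Zfp451, a SUMO ligase, 0.170, Zfp827 0.176, and Zfp410, an activator of the Chd4 gene, 0.223.

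Members with roles in neural development or signalling (8 of 12 listed symbols) had median ratios of 0.449, 0.431, 0.269 and 0.186. Of these, 4 of 8 fell under the mitochondrial scaling, and 0 were called by TMM. The background of 48.8% is not matched for length, and this list runs from 1227 to 3909 nt. Other genes fell in 11.8% of cases under 1500 nt and in 93.8% at 3000 to under 8000 nt. Zfp365, a partner of Disc1 in neurons and oligodendrocytes, had 554, 197, 208, 185 and 144 counts, with ratios of 0.368, 0.453, 0.379 and 0.267, and did not pass either test (slope -0.13, SE 0.0914, adjusted p = 0.259 by edgeR under the mitochondrial scaling). Zfp536, a repressor of neuronal differentiation, had 423, 183, 143, 86 and 69 counts, and Zfp423, a factor of cerebellar development, 124, 71, 49, 35 and 22. Zfp703 had 692, 301, 285, 178 and 133 counts, and Zfp110 and Zfp369, relatives that bind the neurotrophin receptor p75, had ratios of 0.183 and 0.185 at 60 min. Zfp503 had 105, 42, 17, 18 and 19 counts. The Krüppel-type promoter factors (7 of 7) had median ratios of 0.364, 0.257, 0.218 and 0.170. Under the mitochondrial scaling 4 of 7 fell: Zfp148, Zfp281, Zfp219 and Zfp384. The median CDS of this list was 2031 nt, and its share of falls was not matched for length. Zfp143, Zfp523 and Zfp64, with 129, 141 and 106 counts at 0 min, were the 3 with no call. Of the imprint and retroelement repressors, Zfp445 alone was a member (1 of 4 listed), and it fell under both scalings (slope -0.61, SE 0.0925, adjusted p = 4.23e-07, and -0.37, SE 0.0856, adjusted p = 0.0172 by TMM, both edgeR).

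The partners through which KRAB proteins silence DNA were measured as well. Of 21 listed symbols, 16 met the limits, and their median ratios were 0.567, 0.338, 0.212 and 0.178 with a median CDS of 3079.5 nt. The ratios at 60 min ran from 0.124 for the deacetylase Hdac2 to 0.208 for the remodeller Atrx. Under the mitochondrial scaling 11 of 16 fell and by TMM 5 of 16 fell, and 0 rose in either. Other genes of 2000 to under 3000 nt fell in 78.4% and 11.2% of cases under these scalings, and those of 3000 to under 8000 nt in 93.8% and 43.5%. Hdac1 (1449 nt), Hdac2 (1467 nt) and Pphln1 (882 nt) were under 1500 nt and were not called in either. In that class 11.8% and 0.651% of other genes fell. Trim28, the co-repressor itself, had 2083, 681, 367, 385 and 398 counts and did not pass (slope -0.19, SE 0.0883, adjusted p = 0.0809 by edgeR). Setdb1 had 315, 171, 136, 83 and 59 counts and fell (slope -0.45, SE 0.0928, adjusted p = 6.54e-05 by edgeR). The remodeller Chd4 had the lowest slope of the list (-0.72, SE 0.104, adjusted p = 1.85e-07 by edgeR), with 3787, 2127, 2039, 599 and 516 counts.

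At 60 min the members' median ratio was 0.161. It was 0.157 over 10 genes with a letter after the number in their Zfp symbols. For 18 genes of the Zbtb family, with a BTB domain, it was 0.190. For 8 genes of the Zkscan and Zscan family, with a SCAN domain, it was 0.223. The 10 genes with a letter include Zfp36l1 and Zfp36l2, which share the stem of the left-out Zfp36, with ratios of 0.0442 and 0.122. Median CDS lengths were 1848 nt in members, 1942.5 nt in the genes with a letter, 2077.5 nt in the Zbtb family and 1665 nt in the Zkscan and Zscan family. For 60 over 30 min the medians were 0.734 for members, 0.822 for the genes with a letter, 0.787 for the Zbtb family and 0.950 for the Zkscan and Zscan family. These are descriptions of small groups, and the differences between families were not tested. Within the limits, Zbtb43 was the 1 gene of the Zbtb, Zkscan and Zscan families called higher by TMM (slope 0.44, SE 0.113, adjusted p = 0.0245 by edgeR), with 176, 40, 26, 31 and 60 counts.

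Members lie on 20 chromosomes, and 36 of 135 lie on chromosome 7, ahead of chromosome 8 with 13 and chromosome 17 with 12. Positions are from RefSeq on GRCm38.p6, to which all 135 matched. With gaps of under 500 kb, 36 members formed 8 clusters of at least 3. The largest held 7 members (Zfp84, Zfp30, Zfp790, Zfp27, Zfp74, Zfp260 and Zfp382) on chromosome 7 from 29768552 to 30140758, with ratios of 0.104 to 0.189 at 60 min. A cluster of 6 on chromosome 17, 32765496 to 33358896, ran from 0.117 to 0.277. The quartiles of all members were 0.127 and 0.195. The clusters of 3 on chromosome 7 had the following ratios at 60 min. Zfp787, Zfp444 and Zfp667 ran from 0.0934 to 0.126, below the lower quartile, and Zfp628, Zfp579 and Zfp865 from 0.107 to 0.160. Zfp606, Zfp329 and Zfp110 ran from 0.112 to 0.183, and Zfp180, Zfp235 and Zfp61 from 0.121 to 0.243. Counting intervals were wide, for example 0.0686 to 0.217 for Zfp444 and 0.0739 to 0.235 for Zfp329, which include both quartiles. Whether the clusters differ beyond counting error was not tested. The median ratio at 60 min was 0.140 for the members of chromosome 7 and 0.168 for those elsewhere. It was lower on chromosomes 15 (0.106, 3 members), 11 (0.126, 5 members) and 13 (0.139, 5 members). These medians use the library that chose the members and are not matched for length, and their differences were not tested. Many neighbours in the clusters arose by duplication and resemble each other. No source used here states how reads shared between near-identical copies were divided, so values of single cluster members are uncertain to that extent.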

How the data were processed

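Footprints were sequenced from 5 libraries, 1 per time. The submitters' processing notes name mm10 and these tools without their roles: TopHat2 2.0.9, Bowtie2 2.1.0, SAMtools 0.0.19, Trimmomatic 0.32 and cutadapt 1.7.1. The deposited expected counts are, by the table's name, from RSEM over CDS without ends, and are listed as whole numbers. The deposited signal was found to equal the count per kilobase of CDS less 600 nt and per library factor (1, 0.965, 0.828, 0.882 and 0.973 in time order), and the deposited ratio divides it by its 0 min value. Deposited score columns (fractions lost) were not used, and the deposited TPM, rounded to whole numbers, is treated as a score.

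Slopes over 5 to 60 min were tested with edgeR 4.0.16 in R 4.3.3 (genes with a mean of at least 10 counts, 8631 genes, 2 residual degrees of freedom), by TMM and by the summed TPM of 6 mitochondrially encoded genes with TPM of at least 100 in every library, carried to counts. These mitochondrial factors differ from the deposited ones by 3.94%, -0.0459%, -1.21% and -0.288% at 5, 10, 30 and 60 min. The code of the test was run on simulated data as a check. DESeq2 1.42.0 and limma 3.58.1 were alternatives. Intervals are exact 95% conditional binomial intervals and cover counting error only, with no molecular identifiers stated. Members and lists were chosen with earlier results of these data known. Named are the 5 members with the most counts, the 5 highest and 5 lowest ratios at 60 min, up to 6 calls per direction and scaling, the 3 longest and 3 shortest, the 3 extremes of the 10 over 5 and 30 over 10 min steps, and role-list members; Zfp606, Zfp830, Zbtb43 and genes of the largest cluster were added after values were seen.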

Additional observations from a re-analysis of the deposited data

How the results depend on the processing

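The 19 falls and 1 rise of members under TMM became 11 and 0 with DESeq2's Wald test, which gave 46 of the 135 members (Zfp516 among them) no adjusted p, 0 and 0 with the 0 min library, and 0 and 0 by limma on log2(TPM + 1) or log2(TPM + 5); rises were also 0 with no filter on low counts and on minutes. Leaving out 1 library gave 2 to 32 falls (2 without the 60 min, 10 without the 30 min, 32 without the 10 min library) and 0 to 3 rises. The 86 falls under the mitochondrial scaling became 56 with DESeq2, 134 with the 0 min library and 55 of the 67 members with at least 200 counts at 0 min, and leaving out 1 library gave 38 to 94 (38 without the 60 min and 51 without the 5 min library). Rises of members were 0 throughout there. Among all genes tested, falls under the mitochondrial scaling were 2761 of 8631 with DESeq2 and 8828 of 9444 with the 0 min library. They were 1508 of 8729 without the 60 min library and 2305 of 8443 without the 5 min library. By TMM, falls among all genes tested were 602 of 8631 with DESeq2. They were 84 of 8729 without the 60 min, 307 of 8685 without the 30 min and 1591 of 8634 without the 10 min library. Where fewer members enter, counts differ by construction. Leaving out 1 library moved the falls up or down depending on which library was left out. The causes of these and the other differences were not tested. Scaled by TMM, the member medians of 5 over 0, 10 over 5, 30 over 10 and 60 over 30 min were 1.16, 0.977, 0.942 and 0.906, and as TPM ratios 1.28, 0.833, 0.941 and 0.875, since both are relative to other mRNAs. With at least 200 counts at 0 min 5 over 0 and 30 over 10 min were 0.432 and 0.715. Of the 8 members followed gene by gene (Zfp516, Zfp628, Zfp574, Zfp941, Zfp142, Zfp687, Zfp277 and Zfp407), no called slope changed sign; other named members were not followed this way. The alternative limited to members with a zinc finger in the RefSeq protein was not run, since protein sequences were not used here. No paired analysis was possible because each time has 1 library. Depth limits single members most at 60 min, where the lowest count was 4.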

Other observations

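Zfp genes outside the members differed widely. Zfp36, the mRNA decay factor left out by rule, had 380, 35, 23, 19 and 14 counts in time order and a ratio of 0.0379 at 60 min, below all members but Zfp516. Zfp292, left out by its CDS of 8097 nt, had 878, 523, 612, 191 and 125 counts, with ratios of 0.617, 0.842, 0.247 and 0.146, close to the course of Zfp462 and Zfp407. The 84 Zfp symbols held by the TPM table alone include Zfp24, with a TPM of 78, 75, 72, 76 and 77 in time order, and Zfp367, with 14, 94, 217, 147 and 187. Zfp580 had 87, 40, 56, 185 and 166, and 34 of the 84 were listed at 0 in every library. TPM is a share of each library's total, so these values are relative to other mRNAs, and no counts stand behind them here. Zfp24, Zfp367 and Zfp580 were chosen after their values were seen.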
